A study of Bos taurus with 9 samples.

Results

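The genes described here are 39 genes of the endoplasmic reticulum (ER), the compartment in which the liver folds the plasma proteins it secretes: chaperones, disulfide isomerases, subunits of the protein translocation channel, factors of ER-associated degradation (ERAD) and the sensors of ER stress. They were chosen by symbol, with earlier results of these data known. The authors had already listed HSPA5, HSP90B1, PDIA3, PDIA4, DNAJB9, SEC63 and CALR as higher under heat stress in these cows. Counts of the 39 beside shares of all genes are therefore descriptions and no independent test. All 39 were found among the 28786 genes of the count file and could be tested in every comparison. RNA was sequenced from liver biopsies of 9 lactating Holstein cows. Cows of the heat stress (HS, n = 3) group were kept under a daily heat cycle, those of the thermoneutrality (TN, n = 3) group were kept without heat, and those of the pair-fed (PF, n = 3) group were also kept without heat but received only as much feed as HS cows ate. The pair of HS and PF therefore shared a low intake and differed in heat, and the pair of PF and TN differed in intake. Average days in milk, as the authors report them, also differed, being lowest in TN and highest in PF. Each cow gave 1 biopsy and 1 library, so a replicate was a cow.

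Secreted and membrane proteins enter the ER through the Sec61 channel, are bound there by the HSP70 protein BiP (HSPA5) and its J protein partners, receive disulfide bonds from protein disulfide isomerases, and, if glycosylated, cycle through the lectins calnexin and calreticulin. Proteins that fail to fold are trimmed, recognised and passed back to the cytosol by the SEL1L-SYVN1 ligase complex, where VCP extracts them for the proteasome. An excess of unfolded protein activates the sensors IRE1 (ERN1), PERK (EIF2AK3) and ATF6, and the transcription factor XBP1 made downstream of IRE1 raises many of the genes above. In hepatocytes the same machinery serves the high output of albumin and lipoproteins.

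The total was 16874444 to 22557047 counts per cow, and levels are given as CPM, the counts per 1000000 counts of a library after TMM scaling of the 9 libraries. A CPM is not corrected for transcript length, so levels are compared between cows and not between genes. TN replicate 1 stood apart from the other cows: the 12 hepatocyte markers summed to 20980 CPM there, against 66030 to 142900 CPM in the other 8 cows. Albumin (ALB), a large part of that sum, was at 8768 CPM against 33900 to 82510 CPM. TTR and CPS1 were also lowest there, at 865 and 673 CPM. APOA1 was not: its 842 CPM lay above TN replicates 2 and 3 (276 and 513 CPM). It was also the lowest of the 9 cows for 28 of the 39 genes (71.8%), a place it held for 26.9% of all genes tested. Many of the counts, medians and fold changes against TN are therefore also given without this cow. In bulk tissue, fewer cells of a type and less RNA per cell cannot be told apart.

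Summed over all 39 genes, the level was 2726, 4442 and 5053 CPM in the TN cows, 5626, 6858 and 5319 CPM in the PF cows, and 5173, 7228 and 7431 CPM in the HS cows. Both low-intake groups lay wholly above TN in this sum, and HS and PF overlapped. P4HB alone made up a large part of it, and without P4HB the sums were 2211 to 3832 CPM in TN, 3943 to 5315 CPM in PF and 4171 to 5869 CPM in HS, with the same lack of overlap. The order of the group means was HS, PF, TN for 22 of the 39 genes and PF, HS, TN for 11 more. How often all genes show these orders was not counted, nor were the orders taken without TN replicate 1. The other genes were DERL2 and DERL3 (HS, TN, PF), DERL1 and UFD1 (PF, TN, HS), and UGGT1 and NPLOC4 (TN, PF, HS).

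**Figure D1:**
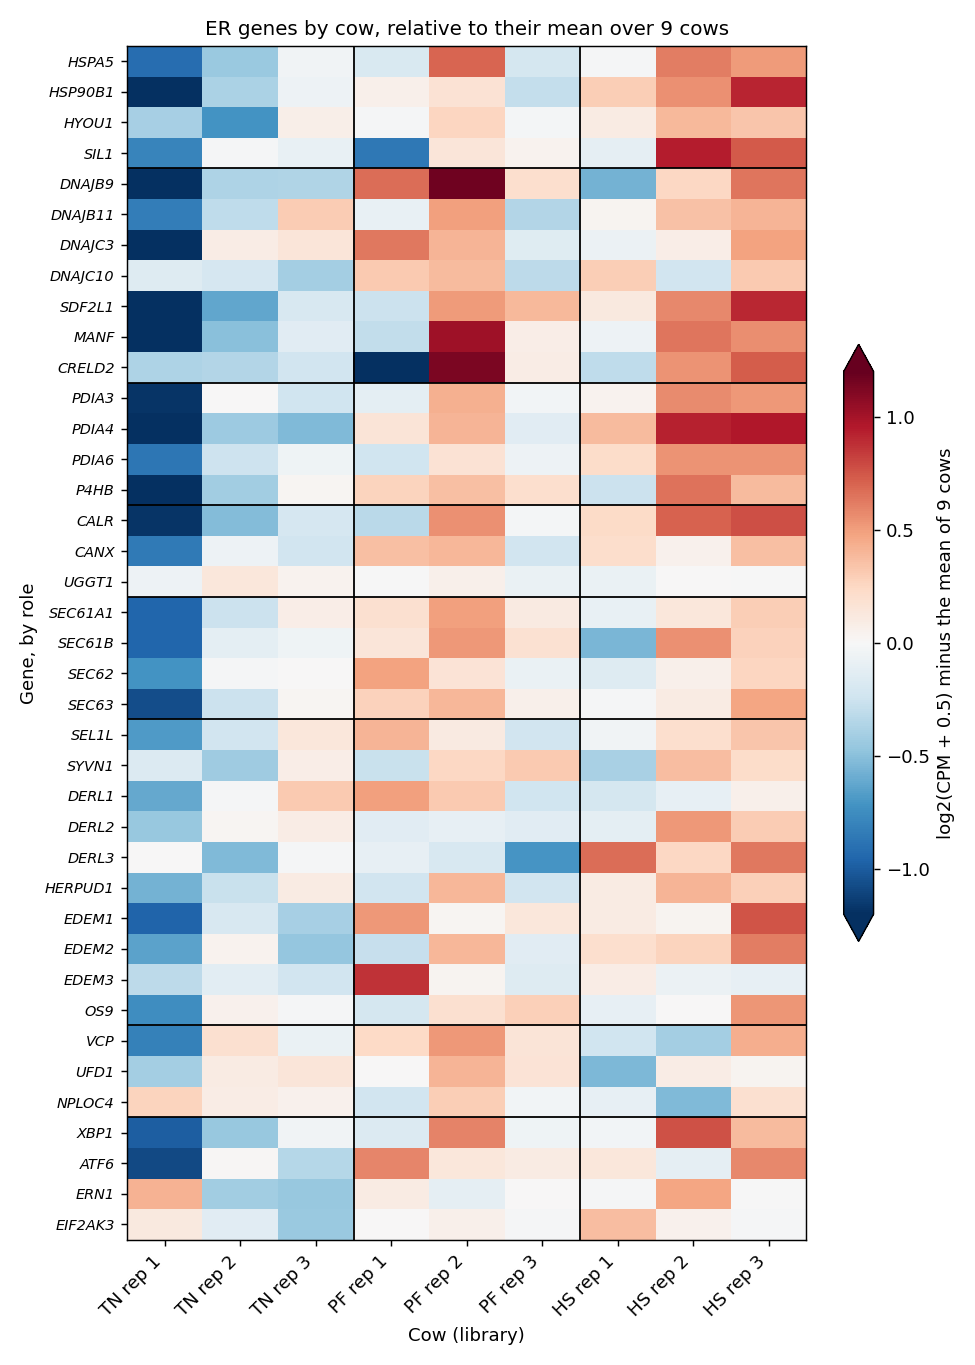
Heatmap of the 39 genes, ordered by role, in the 9 cows. Colour is log2(CPM + 0.5) minus the gene's mean over the 9 cows, and TN replicate 1 is the darkest blue column, being lowest for 28 genes.

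HS against TN asks how the liver of heat-stressed cows differed from that of cows at normal intake without heat. By median, the HSP70 and HSP90 chaperones, the disulfide isomerases and the J proteins with their partners stood highest in this comparison. The leading single genes were PDIA4, SDF2L1, CALR and HSP90B1, with 2.12 to 2.96 times the TN level, whereas the VCP complex lay near its TN level. The log2 fold change was above 0 for 35 of the 39 genes, where 49.3% of all genes tested were above 0, and its median was 0.54 against -0.01 for all genes tested. A fold change over 1.5 was found for 17 genes, where 9.89% of all genes tested passed it, and none fell below the inverse of 1.5. The number over 1.5 was 13 without TN replicate 1. In 15 genes every HS cow lay above every TN cow, a pattern shown by 8.37% of all genes tested.

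No single gene passed the criteria for a differentially expressed gene (DEG: FDR under 0.1 and fold change over 1.5) by the quasi-likelihood test of edgeR, where 0.0892% of all genes tested did, and the FDR of the 39 ranged from 0.29 to 0.973. At an unadjusted p under 0.05, 14 of the 39 genes had the higher level in HS and 0 the lower, beside 4.13% of all genes tested that were higher. DESeq2, the tool of the authors, called 4 of the 39 as DEGs, where it called 1.75% of all genes. They were PDIA4 (FDR 0.00161), CALR (0.0167), SDF2L1 (0.0377) and HSP90B1 (0.0606). Without TN replicate 1 the median log2 fold change was 0.44, 34 genes were above 0 and 9 had an unadjusted p under 0.05 in edgeR. Without HS replicate 2 that number was 9, and without HS replicate 3 it was 4 (PDIA4, SDF2L1, CALR and MANF).

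**Figure D2:**
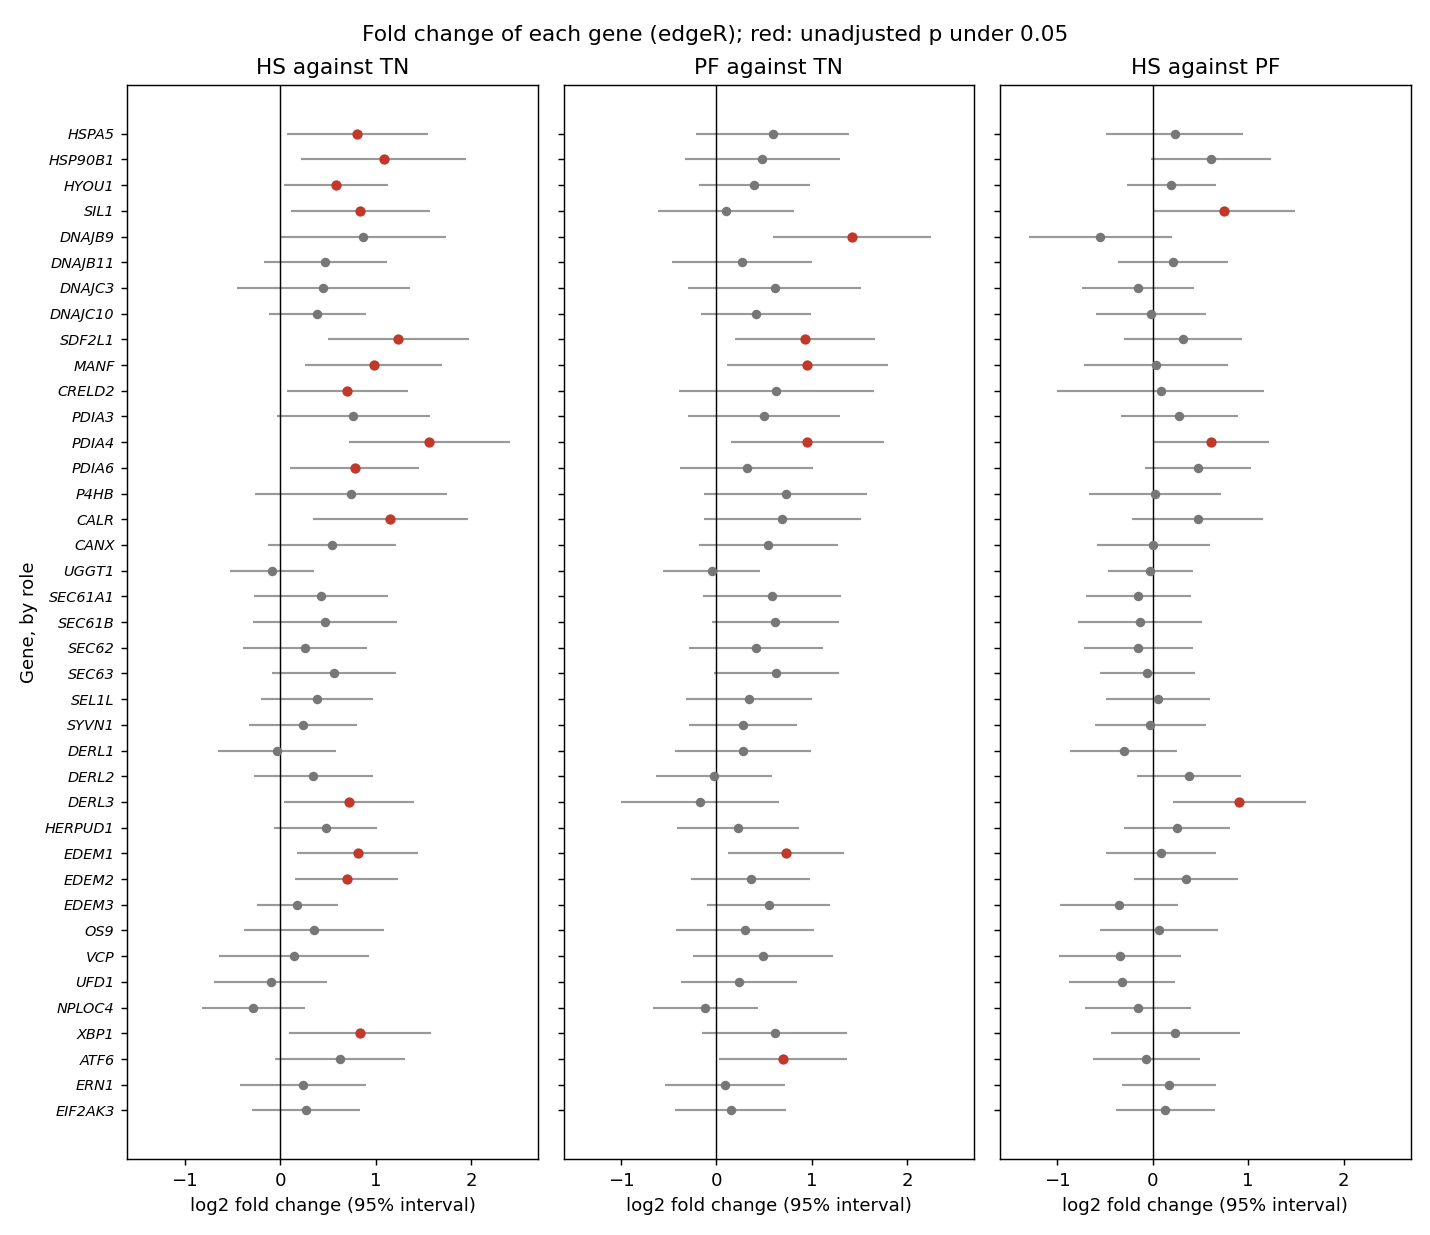
Log2 fold change of each gene with its 95% interval (edgeR) for HS against TN, PF against TN and HS against PF, with genes in the same order as in the heatmap. Red points have an unadjusted p under 0.05: 14 genes in HS against TN, 6 in PF against TN and 3 in HS against PF.

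The HSP70 and HSP90 chaperones of the ER and the BiP exchange factors were the group with the highest median in HS against TN, at 0.83 on the log2 scale, and all 4 had an unadjusted p under 0.05. With TN replicate 1 left out, the median was 0.63 and only HSP90B1 had such a p. HSPA5 (BiP), the central ER chaperone and a brake on the stress sensors, was at 126, 174 and 231 CPM in TN, 209, 386 and 205 CPM in PF, and 235, 365 and 339 CPM in HS. All HS cows lay above all TN cows, while PF replicate 2 was the highest of all 9. The log2 fold change of HSPA5 in HS against TN was 0.81 (SE 0.33, edgeR FDR 0.50), and 0.63 without TN replicate 1.

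HSP90B1 (GRP94), which folds integrins and Toll-like receptors among others, was at 163, 302 and 376 CPM in TN, 410.1, 444 and 321 CPM in PF, and 484, 574 and 741 CPM in HS. Here HS lay above both other groups without overlap. Its log2 fold change was 1.09 (SE 0.39, edgeR FDR 0.47) in HS against TN and 0.61 (SE 0.29, edgeR FDR 0.95) in HS against PF. SIL1 and HYOU1 are nucleotide exchange factors that release client proteins from BiP. SIL1 stood at 53.7 ± 14.7 CPM (SD, n = 3) in TN, 57.6 ± 19.6 CPM in PF and 97.2 ± 33.6 CPM in HS, where replicates 2 and 3 were the highest of all 9 cows. HYOU1 stood at 36.1 ± 3.83 CPM in HS against 23.8 ± 6.71 CPM in TN, with a log2 fold change of 0.58 (SE 0.24, edgeR FDR 0.51).

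The J proteins of the ER and their partners deliver clients to BiP, and their median log2 fold change in HS against TN was 0.71, with 3 of 7 at an unadjusted p under 0.05 (SDF2L1, MANF and CRELD2). The median was 0.56 without TN replicate 1, and 2 had such a p, SDF2L1 and MANF. SDF2L1, which works with DNAJB11 to keep clients soluble, was at 15.3, 27.0 and 36.5 CPM in TN, 35.0, 59.8 and 54.8 CPM in PF, and 45.6, 62.6 and 79.1 CPM in HS. HS was wholly above TN, and PF replicate 1 lay just under the highest TN cow. The log2 fold change of SDF2L1 was 1.24 (SE 0.33, edgeR FDR 0.35) in HS against TN and 0.97 without TN replicate 1.

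MANF, a secreted protein that steadies complexes of BiP with its clients, was at 18.2, 32.2 and 41.7 CPM in TN, 37.1, 92.8 and 48.4 CPM in PF, and 43.8, 71.7 and 67.6 CPM in HS. PF replicate 2 was the highest of the 9 cows, and the means were 61.0 ± 15.1 CPM in HS and 59.4 ± 29.4 CPM in PF. CRELD2, an ER stress gene with isomerase activity, ranged from 6.39 to 35.2 CPM within PF alone. DNAJB11, DNAJC3 and DNAJC10, which are a BiP co-chaperone, an inhibitor of PERK that also binds clients, and a reductase that prepares substrates for ERAD, had log2 fold changes of 0.39 to 0.47 in HS against TN, none with an unadjusted p under 0.05.

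DNAJB9 (ERdj4), a J protein that recruits BiP to IRE1 and acts in ERAD, had group means in the order PF, HS, TN. DNAJC3 and DNAJC10 shared this order, whereas DNAJB11, SDF2L1, MANF and CRELD2 had HS, PF, TN. DNAJB9 was at 16.6, 40.2 and 40.5 CPM in TN, 83.5, 118 and 59.9 CPM in PF, and 35.1, 62.0 and 81.9 CPM in HS. Every PF cow lay above every TN cow, and HS overlapped with both. Its log2 fold change was 1.42 (SE 0.38, edgeR FDR 0.62) in PF against TN, 0.87 (SE 0.39, edgeR FDR 0.52) in HS against TN and -0.55 in HS against PF, where the 95% interval ran from -1.30 to 0.20. Without TN replicate 1 it was 1.11 in PF against TN and 0.56 in HS against TN.

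Among the disulfide isomerases all 4 genes had a fold change over 1.5 in HS against TN, with a median log2 fold change of 0.78, and PDIA4 and PDIA6 had an unadjusted p under 0.05. Leaving out TN replicate 1, the median was 0.545, 2 genes were over 1.5, PDIA4 and PDIA6, and only PDIA4 had such a p. PDIA4 (ERp72) had the largest log2 fold change of the 39 genes in HS against TN. It was at 46.1, 114 and 107 CPM in TN, 172, 204 and 139.9 CPM in PF, and 200.03, 292 and 299.7 CPM in HS. The PF cows lay wholly above TN, and so did the HS cows, and HS replicate 1 was just under the highest PF cow. The log2 fold change of PDIA4 was 1.56 (SE 0.38, edgeR FDR 0.29) in HS against TN, 0.95 (SE 0.37, edgeR FDR 0.71) in PF against TN and 0.61 (SE 0.28, edgeR FDR 0.92) in HS against PF. Without TN replicate 1 it was 1.26 in HS against TN and 0.65 in PF against TN.

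PDIA6, which also tempers IRE1 signaling, was at 229.6, 286 and 286 CPM in HS, above all PF cows (166, 222 and 188 CPM) and all TN cows (107, 165 and 189.6 CPM). PDIA3 (ERp57) works with the lectin chaperones on glycoproteins, and stood at 184 ± 69.9 CPM in TN, 260.4 ± 55.2 CPM in PF and 316 ± 59.6 CPM in HS. P4HB (PDI) also serves as a subunit of the microsomal triglyceride transfer protein that loads lipoproteins. Its level was 515, 899.7 and 1221 CPM in TN, 1446, 1543 and 1376 CPM in PF, and 1002, 1887 and 1561 CPM in HS, so PF lay wholly above TN while HS replicate 1 fell among the TN cows. By RefSeq gene positions in the ARS-UCD2.0 assembly, PDIA3, PDIA4, PDIA6, DNAJC10, SYVN1 and ATF6 overlap another protein-coding gene. Whether strand was used in counting is not given in the sources used here, so reads of overlapping pairs cannot be told apart for these 6. The gene that overlaps PDIA4 (LOC100336368) held 1364, 1429 and 2211 counts in the TN cows, 1142, 2973 and 1804 in the PF cows, and 3375, 3050 and 1989 in the HS cows. Its part in the PDIA4 level was not tested.

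CALR (calreticulin), the soluble lectin that holds newly made glycoproteins in the ER, was at 187, 296 and 367 CPM in TN, 338, 620.2 and 416 CPM in PF, and 497, 691 and 724 CPM in HS. HS was wholly above TN, and PF overlapped with both. Its log2 fold change was 1.16 (SE 0.36, edgeR FDR 0.42) in HS against TN and 0.47 in HS against PF (95% interval -0.22 to 1.16). CANX (calnexin), its membrane-bound partner, was at 246 ± 55.4 CPM in PF and 248 ± 26.2 CPM in HS, against 169 ± 44.7 CPM in TN. UGGT1, which tags glycoproteins that are not yet folded for another round of the cycle, was at 50.4 to 58.5 CPM in all 9 cows, with a log2 fold change of -0.08 in HS against TN (95% interval -0.52 to 0.35).

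**Figure D3:**
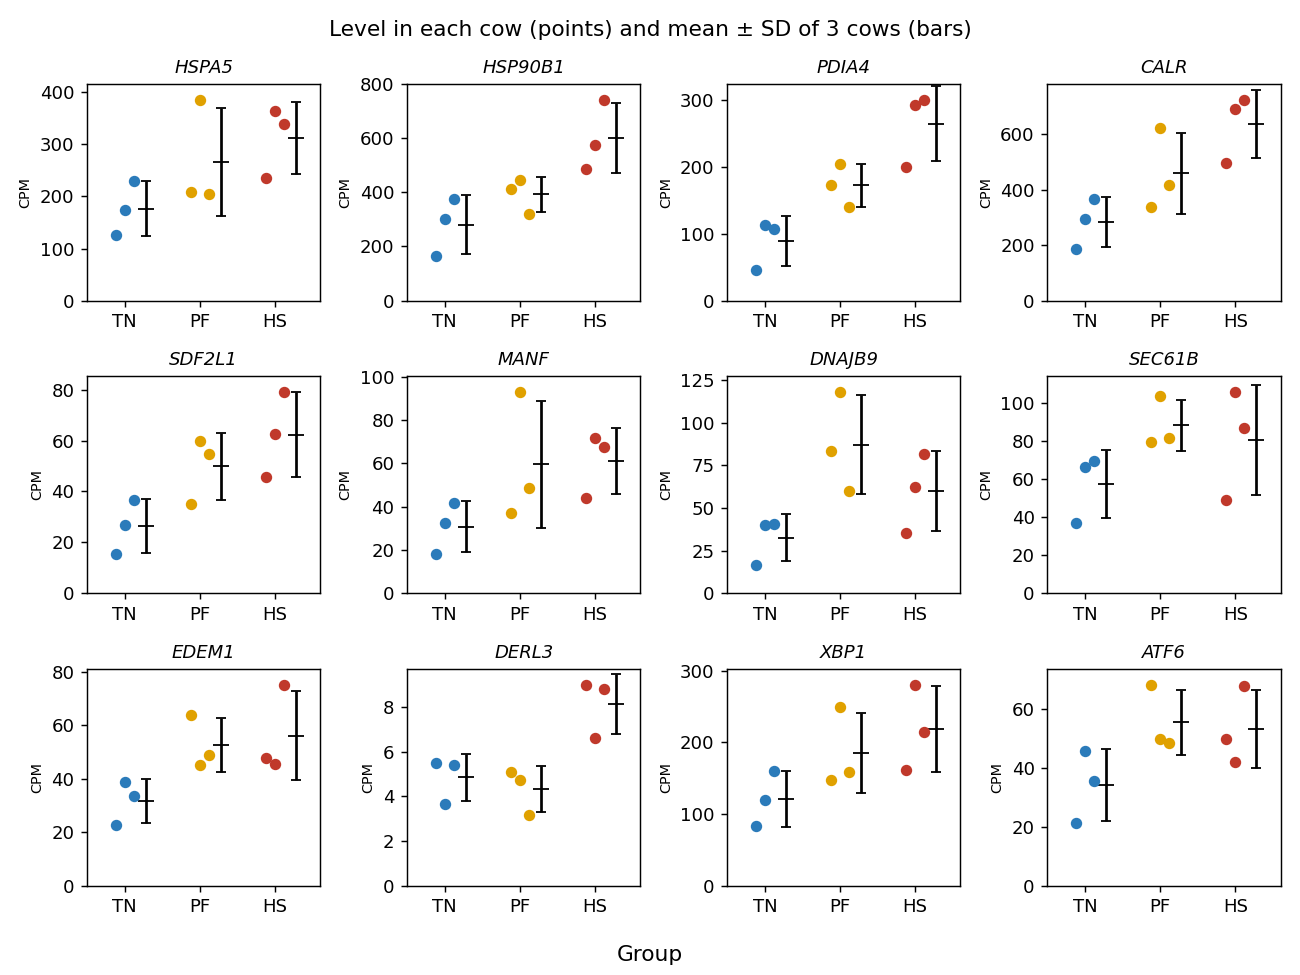
CPM of 12 of the genes in each cow (coloured points, replicates 1 to 3 from left to right) by group, with the mean ± SD of 3 cows as a black bar beside them. HSP90B1 is highest in HS without overlap, DNAJB9 has its highest mean in PF, and PDIA4 has all PF and all HS cows above TN.

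The means of the 4 translocon genes were higher in PF and in HS than in TN, and 0 of them had an unadjusted p under 0.05 in any comparison. SEC61A1 forms the channel, SEC61B is a small subunit of it, and SEC62 and SEC63 serve proteins that enter after translation. SEC61A1 was at 86.1, 140.3 and 177 CPM in TN, 191, 235 and 180.3 CPM in PF, and 157, 184 and 206 CPM in HS. For SEC61A1, SEC61B and SEC63 every PF cow lay above every TN cow, with log2 fold changes of 0.59 (SE 0.33), 0.62 (SE 0.30) and 0.63 (SE 0.30) in PF against TN. TN replicate 1 was the lowest cow for all of them, and without it the values were 0.35, 0.39 and 0.37. In HS against TN the median of the 4 was 0.45, and 0.22 without that cow, and in HS against PF it was -0.14, with all 4 below 0.

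The 10 ERAD genes that recognise and export misfolded proteins had a median log2 fold change of 0.37 in HS against TN, and 3 had an unadjusted p under 0.05: EDEM1, EDEM2 and DERL3. The median without TN replicate 1 was 0.23, and these 3 had such a p again. EDEM1 and EDEM2 belong to the mannosidases that mark glycoproteins for degradation. EDEM1 was at 22.6, 38.9 and 33.6 CPM in TN, 64.0, 45.1 and 48.8 CPM in PF, and 47.8, 45.4 and 75.2 CPM in HS. Together with PDIA4 it was 1 of the 2 genes for which both PF and HS lay wholly above TN. The share of all genes with this joint pattern was not counted. The log2 fold change of EDEM1 was 0.81 (SE 0.28, edgeR FDR 0.46) in HS against TN and 0.73 (SE 0.28, edgeR FDR 0.71) in PF against TN. Without TN replicate 1 the values were 0.63 and 0.54.

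EDEM3, a paralog of both, was at 52.5 CPM in PF replicate 1 and at 22.9 to 30.3 CPM in the other 8 cows. DERL3, a derlin of the retrotranslocation channel that is known from secretory cells under stress, was the lowest of the 39 in counts, with 5.503, 3.64 and 5.43 CPM in TN, 5.09, 4.75 and 3.16 CPM in PF, and 9.01, 6.61 and 8.81 CPM in HS. The HS cows lay above all other cows. Its log2 fold change was 0.91 (SE 0.32, edgeR FDR 0.71) in HS against PF and 0.72 (SE 0.30, edgeR FDR 0.51) in HS against TN. Its paralogs DERL1 and DERL2 did not share this order, with means of 89.3 and 111 CPM in TN, 108 and 109 CPM in PF, and 88.0 and 142 CPM in HS.

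SEL1L and SYVN1, the adaptor and the ligase at the core of ERAD, had log2 fold changes of 0.39 (SE 0.26) and 0.24 (SE 0.25) in HS against TN, with overlapping groups. HERPUD1, which helps to organise that complex, was at 61.1 ± 14.3 CPM in TN, 71.8 ± 19.3 CPM in PF and 86.0 ± 9.30 CPM in HS, and the lectin OS9 was at 216 ± 59.7, 266 ± 46.2 and 279.5 ± 68.4 CPM. For the cytosolic extraction complex no group stood apart: VCP was at 113, 226 and 188 CPM in TN, 235, 286 and 221 CPM in PF, and 168, 150.2 and 269 CPM in HS. Its cofactors UFD1 and NPLOC4 had log2 fold changes of -0.10 (95% interval -0.69 to 0.49) and -0.28 (95% interval -0.82 to 0.26) in HS against TN.

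XBP1, the transcription factor spliced by IRE1, was at 83.0, 120.1 and 160.2 CPM in TN, 147, 249.5 and 159 CPM in PF, and 161, 280.4 and 214 CPM in HS. HS replicate 1 lay just above the highest TN cow, so the groups did not overlap, and the log2 fold change of XBP1 was 0.84 (SE 0.33, edgeR FDR 0.49) in HS against TN. Gene counts do not separate spliced from unspliced XBP1, so its activation was not measured. ATF6 was at 21.2, 45.8 and 35.7 CPM in TN, 68.3, 49.8 and 48.6 CPM in PF, and 49.8, 42.0 and 67.9 CPM in HS, with PF wholly above TN. The sensors ERN1 and EIF2AK3 had overlapping groups throughout, with means of 25.9 and 10.7 CPM in TN, 27.6 and 11.9 CPM in PF, and 31.2 and 13.1 CPM in HS. ERN1 was highest in HS replicate 2 and next in TN replicate 1, at 38.6 and 37.2 CPM.

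PF against TN asks what the low intake without heat went with, though these groups also differed in average days in milk. Most of the genes had a higher mean in PF, with DNAJB9 in the lead at 2.68 times the TN level and 3 of the 4 translocon genes among those that did not overlap. Of the 39 genes 35 had a log2 fold change above 0, beside 48.8% of all genes tested, and the median was 0.48 against -0.01. A fold change over 1.5 was found for 15, beside 9.33%, and none fell below its inverse. Only 5 were over 1.5 without TN replicate 1: DNAJB9, SDF2L1, MANF, CRELD2 and PDIA4. In 8 genes PF lay wholly above TN, beside 6.81% of all genes tested: DNAJB9, PDIA4, P4HB, SEC61A1, SEC61B, SEC63, EDEM1 and ATF6. HS against TN and PF against TN share the TN cows, so the values of both stand side by side here and their likeness is not read as a result.

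In edgeR 0 of the 39 were DEGs in PF against TN, as were 0% of all genes tested. DESeq2 called 1, DNAJB9 (FDR 0.0421), where it called 0.555% of all genes. At an unadjusted p under 0.05 there were 6 genes with the higher level in PF and 0 with the lower, beside 2.99% of all genes tested that were higher: DNAJB9, SDF2L1 (log2 fold change 0.93), EDEM1, PDIA4, MANF (0.95) and ATF6 (0.70). Without TN replicate 1 the median was 0.31, 34 genes were above 0, and DNAJB9 and PDIA4 had an unadjusted p under 0.05. Without PF replicate 2 the median was also 0.31 and 2 genes had such a p, DNAJB9 and EDEM1. PF replicate 2 was the highest cow for 11 of the 39 genes, beside 10.3% of all genes tested. HS replicate 2 was likewise the highest for 11, beside 8.63%.

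HS against PF asks what the heat went with at equal intake, though these groups, too, differed in average days in milk. The median of the 39 genes was 0.06 against 0.01 for all genes tested, and 24 lay above 0, beside 50.9%. The 4 HSP70 and HSP90 chaperones and exchange factors, with a median of 0.42, and the 4 isomerases, with a median of 0.37, were all above 0, whereas the 4 translocon genes and the 3 VCP complex genes were all below 0. These signs were the same under every scaling tried, whereas those of P4HB, SEC61B, SEC62, SEC63 and NPLOC4 turned with 1 or another cow left out. HSP90B1, PDIA6 and DERL3 lay wholly higher in HS, a pattern shown by 5.95% of all genes tested. In edgeR 0 of the 39 were DEGs in HS against PF, beside 0.0276% of all genes tested, and DESeq2 called 0, beside 0.771%.

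An unadjusted p under 0.05 was found for 3 genes, DERL3, PDIA4 and SIL1 (log2 fold change 0.75, SE 0.34), beside 3.07% of all genes tested that were higher in HS, and for 0 genes with the lower level. The intervals were wide: for HSPA5 the log2 fold change was 0.23 (95% interval -0.49 to 0.94), and for XBP1 0.24 (95% interval -0.44 to 0.91), so neither interval left out a difference of either sign between heat-stressed and pair-fed cows. Without PF replicate 1 or without HS replicate 2 such a p was found for DERL3 only, and without PF replicate 3 for 0 genes. Without HS replicate 3 the median was -0.03, and DERL3 (higher in HS), DNAJB9 and VCP (both lower in HS) had an unadjusted p under 0.05.

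When all 3 groups were tested together, 0 of the 39 genes had an FDR under 0.1 in edgeR, beside 0.0464% of the genes tested, and the smallest FDR was 0.311 (PDIA4). The unadjusted p was under 0.05 for 10 genes, beside 7.86%: PDIA4, SDF2L1, DNAJB9, CALR, HSP90B1, EDEM1, DERL3, MANF, PDIA6 and SIL1. That number was 6 without TN replicate 1, 5 without HS replicate 2 and 4 without HS replicate 3.

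The other genes of the same pathways were read from 5 lists with 135 genes, of which 133 were in the file. In HS against TN 102 of the 131 tested had a log2 fold change above 0, with a median of 0.33, and 14 had the higher and 2 the lower level at an unadjusted p under 0.05. Without TN replicate 1 these were 95 genes, 0.20, 7 and 3. No gene of the 5 lists was a DEG in edgeR, and DESeq2 called 3 (MCFD2, QSOX1 and CREB3L3). In PF against TN 103 of 131 were above 0, with a median of 0.29, and 11 had the higher and 1 the lower level at an unadjusted p under 0.05. Leaving that cow out again, these were 90 genes, 0.17, 5 and 0. In HS against PF 70 of 130 were above 0, with a median of 0.02.

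The other folding factors had a median of 0.48 in HS against TN with 10 of 38 higher at an unadjusted p under 0.05, led by the oxidase ERO1B (log2 fold change 0.68, SE 0.21, edgeR FDR 0.42), the cargo receptor subunit MCFD2 (1.12, SE 0.36, FDR 0.44) and the sulfhydryl oxidase QSOX1 (1.03, SE 0.37, FDR 0.47). The median was 0.27 without TN replicate 1, with 4 of 38 higher. QSOX1 was at 107, 244 and 165 CPM in TN, 264, 319 and 258 CPM in PF, and 263, 403 and 396 CPM in HS. In PF against TN the leading folding factors were SDF2 (0.73), a paralog of SDF2L1, and the peroxiredoxin PRDX4 (1.09). PDIA2 was at 0 counts in all cows, a level of at most 0.111 to 0.202 CPM if a count of 0 allows up to 3 counts.

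The N-glycosylation list had a median of 0.49 in HS against TN and 0.59 in PF against TN, with 13 and 14 of 15 genes above 0 and 2 and 4 higher at an unadjusted p under 0.05. With TN replicate 1 omitted, the medians were 0.26 and 0.345, with 13 and 10 genes above 0 and 2 and 1 higher. MOGS, the glucosidase that trims the outermost glucose, was at 24.6, 23.5 and 23.6 CPM in TN, 30.6, 44.0 and 37.1 CPM in PF, and 33.5, 42.5 and 49.6 CPM in HS, so both PF and HS lay wholly above TN. Its log2 fold change was 0.79 (SE 0.21, edgeR FDR 0.37) in HS against TN. OST4, a small subunit of the oligosaccharyltransferase, had 0.95 (SE 0.29, edgeR FDR 0.40). The targeting and translocation list had medians of 0.33 in HS against TN and 0.40 in PF against TN, with 0 and 1 of 32 genes higher at an unadjusted p under 0.05. The medians without TN replicate 1 were 0.18 and 0.16, and 23 genes were above 0 in each.

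The remaining ERAD genes had a median of 0.16 in HS against TN, and 1 was higher at an unadjusted p under 0.05 and 1 lower. The lower was HERPUD2, a paralog of HERPUD1, at 28.3, 28.6 and 27.6 CPM in HS against 34.1, 40.5 and 40.6 CPM in TN. The higher was SVIP, an inhibitor of VCP-dependent ERAD (1.05, SE 0.45, edgeR FDR 0.52). Its value was 0.73 without TN replicate 1, no longer at such a p. The list of other ER stress signaling genes, which holds the PERK branch, had a median of -0.07 in HS against TN and 5 of 16 genes above 0. ATF6B, a paralog of ATF6, was at 18.3, 18.2 and 18.2 CPM in HS, and all TN cows lay above these, with a mean of 24.8 ± 2.79 CPM (SD, n = 3). Its log2 fold change was -0.46 (SE 0.20, edgeR FDR 0.52), and -0.35 without TN replicate 1. ATF4 was at 148, 195 and 259.8 CPM in TN and 161, 137 and 144 CPM in HS, and its target DDIT3 (CHOP), which promotes cell death, had a log2 fold change of -0.73 (SE 0.27, edgeR FDR 0.71) in PF against TN, -0.50 without TN replicate 1. In HS against PF DDIT3 lay wholly higher in HS, with 0.51 (SE 0.24, edgeR FDR 0.95). CREB3L3, a liver-enriched ER-bound transcription factor, was at 41.8, 51.3 and 52.2 CPM in TN and 76.5, 117 and 91.7 CPM in HS, with a log2 fold change of 0.96 (SE 0.24, edgeR FDR 0.32). In PF it was at 47.9 and 50.5 CPM in replicates 1 and 2 and at 144 CPM in replicate 3.

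**Figure D4:**
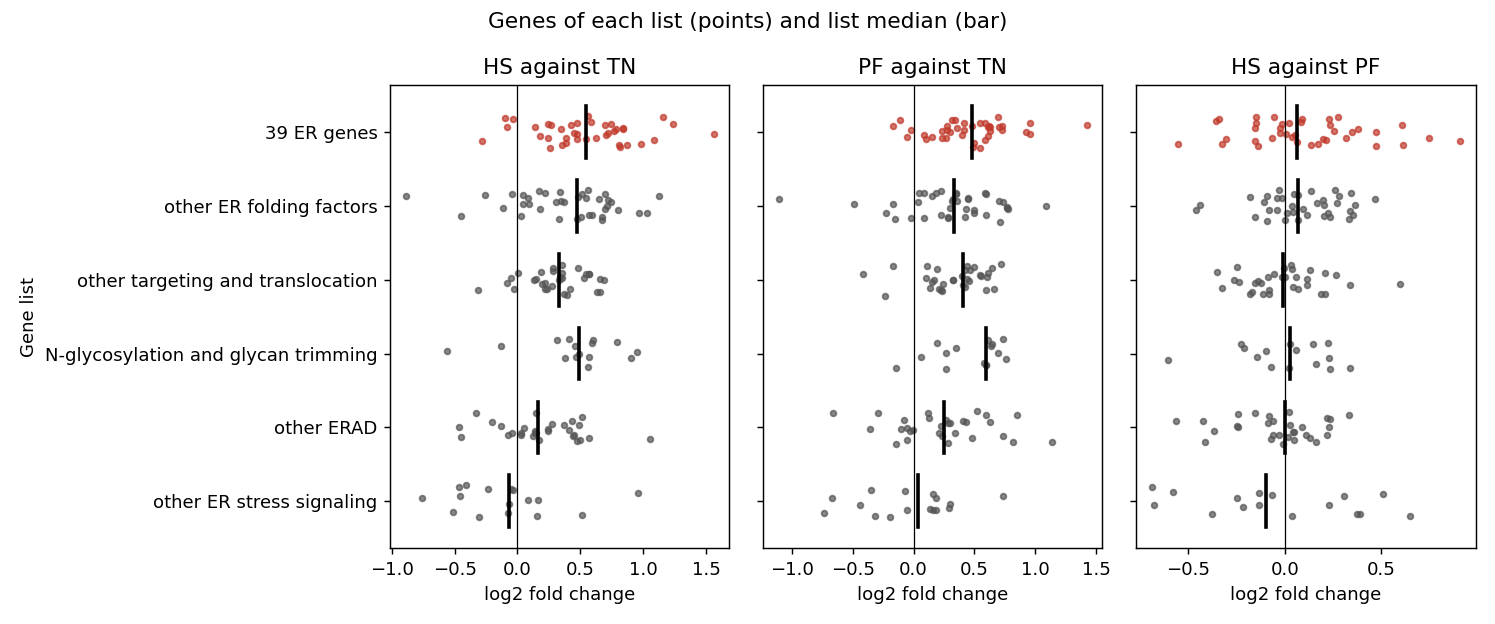
Log2 fold change (edgeR) of every gene of the 39 (red) and of the 5 lists of other ER genes (grey) in each comparison, with the list median as a black bar. In HS against TN the medians run from 0.54 for the 39 genes to -0.07 for other ER stress signaling, and in HS against PF all lie between -0.10 and 0.07.

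Chaperones of other compartments were read from 2 lists. The 25 cytosolic chaperones and their factors had medians of 0.60 in HS against TN, 0.37 in HS against PF and 0.28 in PF against TN, with 14, 11 and 2 higher at an unadjusted p under 0.05. The 16 mitochondrial chaperones and proteases had medians of 0.24, 0.02 and 0.35 in the same order. Beside these, the ER genes had 0.54, 0.06 and 0.48. With TN replicate 1 left out, the medians in HS against TN and PF against TN were 0.61 and 0.24 for the cytosolic list, 0.05 and 0.15 for the mitochondrial list, and 0.44 and 0.31 for the ER genes. The differences between lists were not tested.

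Several cell markers and the mitochondrial transcripts moved with the groups. The 13 mitochondrially encoded genes summed to 141700 to 197500 CPM in TN, 73020 to 77510 CPM in PF and 44280 to 61780 CPM in HS. With these genes left out of the library totals the median of the 39 genes was 0.55 in HS against TN (0.48 in PF against TN), and their part in the result was otherwise not tested. All 9 macrophage markers had a log2 fold change above 0 in HS against PF, 8 of them at an unadjusted p under 0.05, and they summed to 1525 to 3486 CPM in TN, 1320 to 2116 CPM in PF and 2221 to 3847 CPM in HS. In HS against TN all 9 were also above 0, 1 of them at such a p, with a median of 0.41, and without TN replicate 1 there were 7 above 0 with a median of 0.14. The 3 neutrophil markers that could be tested were above 0 in HS against TN and in HS against PF, and the 4 in the file summed to 6.58 to 16.9 CPM in TN, 7.46 to 27.0 CPM in PF and 22.6 to 38.6 CPM in HS. The hepatocyte markers had 9 of 12 genes above 0 in HS against TN and 12 of 12 in PF against TN, with medians of 0.44 and 0.53. Without TN replicate 1 these were 7 of 12 and 12 of 12, with medians of 0.03 and 0.15.

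Markers of plasma cells and B cells, whose ER is rich in the same chaperones, summed to 78.9 to 145.7 CPM in TN, 48.5 to 119.8 CPM in PF and 88.5 to 120.0 CPM in HS, and 0 of 8 were higher at an unadjusted p under 0.05 in any comparison. In HS against PF 7 of the 8 were above 0 with a median of 0.52, 4 of them over 1.5-fold, and in PF against TN 2 were above 0 with a median of -0.47, 1 of the 8 being lower at such a p. Of 10 pancreatic acinar markers in the file 7 were at 0 in every cow, CPA1, CPB1 and PNLIP among them, and the list summed to 0.716 to 1.92 CPM in TN, 1.17 to 25.1 CPM in PF and 18.6 to 35.0 CPM in HS. PRSS2 alone held most of that sum in the HS cows (33.9, 21.2 and 17.6 CPM) and in PF replicate 1 (24.15 CPM). The part of these cell types in the levels of the ER genes was not tested.

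**Figure D5:**
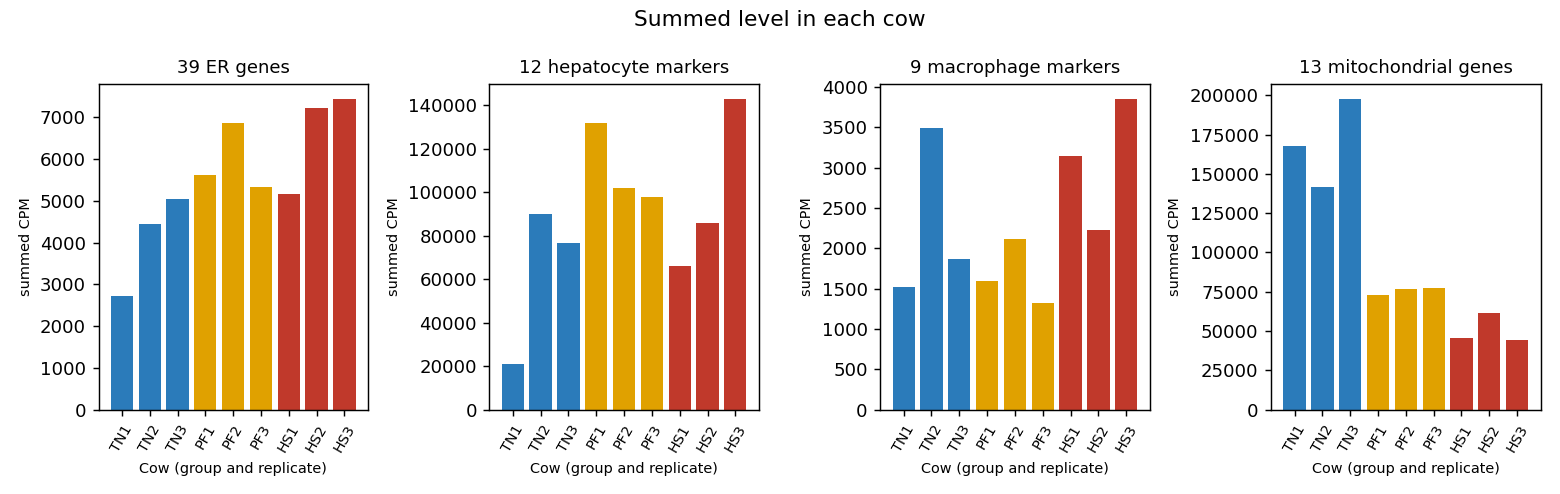
Summed CPM in each cow (bars, from 0) for the 39 genes, 12 hepatocyte markers, 9 macrophage markers and 13 mitochondrially encoded genes, coloured by group. TN replicate 1 has the lowest sum of the 39 genes (2726 CPM) and of the hepatocyte markers (20980 CPM), and the mitochondrial sum is highest in the TN cows.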

How the data were processed

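Liver RNA of 9 cows, 3 in each of HS, PF and TN, was sequenced after poly-A selection. Per the labels and methods, the authors filtered reads with fastp 0.23.2, aligned them to ARS-UCD1.2 with STAR 2.7.9a (at most 3 mismatches) and deposited the raw read counts per gene from featureCounts 2.0.3. The annotation release and the strand and multi-mapping settings are not given in the sources used here. Samples were grouped by their labels. Counts per cow were 16874444 to 22557047.

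The groups were compared pairwise, with the 6 libraries of a pair in a fit of their own, by the quasi-likelihood F test of edgeR 4.0.16 (R 4.3.3) after TMM scaling and filterByExpr, and p-values were adjusted by Benjamini-Hochberg over every gene that passed the filter. Genes at FDR under 0.1 whose fold change exceeded 1.5 were taken as DEGs. All 3 groups were also tested together on the 9 libraries. DESeq2 1.42.0 was an alternative, as were other size factors, filters and thresholds, a replicate block and leaving out each cow. DESeq2 with these DEG criteria was the authors' own test. Over all genes it called 270 in HS against TN, 122 in HS against PF and 91 in PF against TN, the numbers they reported. CPM used TMM-scaled totals, and plots on the log2 scale added 0.5. The steps were tested on simulated data.

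All 39 genes could be named, and, of each list of other ER genes, up to 3 with the smallest unadjusted p per comparison. The genes and lists were chosen with earlier results of these data known. RefSeq of ARS-UCD2.0, another build than that of the counts, served only to match symbols and find overlapping genes. For 2 list genes an older symbol matched, and 2 were not matched. Libraries of a group differed far beyond counting noise (chi-square per degree of freedom 55.5 to 222). Each cow carries a replicate number, and the labels do not say that it pairs cows across groups.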

Additional observations from a re-analysis of the deposited data

How the results depend on the processing

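The number of DEGs among the 39 genes was 0 in edgeR in every comparison and stayed 0 under other size factors, without TMM (an alternative chosen after seeing the data), with the mitochondrial genes left out, with at least 10 counts in every library, in 1 fit of all 9 libraries, and with any cow left out. It was 4 in HS against TN, 1 in PF against TN and 4 over the 3 groups (PDIA4, SDF2L1, DNAJB9 and CALR) with DESeq2. With no filter on low counts it was 1 (PDIA4, FDR 0.0887), 1 (DNAJB9, FDR 0.0216) and 2 (both). The number of genes at an unadjusted p under 0.05 in HS against PF was 1 (DERL3) with DESeq2's size factors in edgeR and 1 (DERL3) with the mitochondrial genes left out. With 1 cow left out it ranged from 4 to 15 in HS against TN, from 0 to 4 in HS against PF and from 2 to 8 in PF against TN. The median log2 fold change then ranged from 0.41 to 0.67, from -0.033 to 0.18 and from 0.31 to 0.58. The sign of the log2 fold change turned with at least 1 cow left out for 3 of the 39 genes in HS against TN, 19 in HS against PF and 9 in PF against TN, CRELD2 in the last being farthest from 0 (0.63). Among them were MANF in HS against PF (-0.21 to 0.51), and DERL1 (-0.24 to 0.19), VCP (-0.15 to 0.37) and UFD1 (-0.24 to 0.080) in HS against TN. The cause of these shifts was not tested. Library totals without TMM moved the median of all genes to -0.17 in PF against TN, where that of the 39 genes was 0.39.

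Deviations from the group mean correlated at r from -0.18 to 0.20 between cows with the same replicate number. Between cows with different numbers r ran from -0.245 to 0.254. The labels do not say how cows were matched, so whether the number pairs cows was not settled. With the replicate block, 17 genes in HS against TN, 2 in HS against PF and 6 in PF against TN had an unadjusted p under 0.05, the medians were 0.61, 0.07 and 0.43, there were 0 DEGs, and DERL1 in HS against TN was at 0.01 (0.0075).

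Each group held only 3 cows, and libraries of a group differed far beyond counting noise. The part of sequencing depth in the spread of single genes was not tested. DERL3 rested on 59 counts in its lowest cow. Gene counts show neither XBP1 splicing nor protein levels.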
